A study of Mus musculus with 89 samples.

Results

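The genes described here are the mouse zinc finger genes numbered Zfp900 to Zfp999, taken as every row of an RNA-seq count table whose symbol is Zfp followed by 9 and 2 more digits. The rule found 58 genes among 26276 rows with a symbol. The series followed depletion of the histone variant H2A.Z.1 in V6.5 mouse embryonic stem cells, an established line, over 89 samples. Of these, 6 are RNA-seq libraries, 3 titled Control and 3 titled dTAG, and the other 83 samples come from other assays and are not analysed here. Both groups carried the same genotype, H2afz-FKBP-V, and were grown in 2i + LIF medium, in which the inhibitors PD0325901 and CHIR99021 hold the cells in the naive state. In such cells the dTAG molecule binds the FKBP-V tag on H2A.Z.1 and sends the protein for degradation. The control libraries therefore also made the tagged protein, and the H2afz transcript is no check of the treatment. The labels give no treatment time for the RNA-seq samples, do not say what the controls received, and do not say whether the cells were 1 clone or the libraries came from separate cultures. The p-values below therefore measure the spread between these libraries, which may be technical.

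Most genes in this number range encode zinc finger proteins with a KRAB domain, a large family of DNA-binding repressors in mammals. Their arrays of C2H2 zinc fingers read DNA sequence, often inside transposable elements, and the KRAB domain recruits Trim28 (KAP1). Trim28 in turn brings the histone methyltransferase Setdb1 and heterochromatin protein 1, and the bound element is silenced. The genes sit in clusters that differ between rodent species and contain closely related copies. Embryonic stem cells depend on this pathway to keep endogenous retroviruses silent.

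RefSeq's gene table for assembly GRCm38.p6, a patch release of the mm10 build named by the submitters, held 57 of the 58 genes, all 57 as protein coding, on 12 chromosomes. It held no entry for Zfp986. Runs of neighbours were defined by starts less than 500 kb apart, which gave 6 runs holding 31 genes. A spacing of 1000 kb, chosen after the positions were seen, joined them into 5 runs holding 36 genes, and these are used below. The run on chromosome 4 held 11 genes at chr4:145670697-147849126, in order Zfp980, Zfp987, Zfp992, Zfp981, Zfp993, Zfp991, Zfp982, Zfp985, Zfp979, Zfp984 and Zfp933. The run on chromosome 2 held 8 genes at chr2:175372034-178078425, namely Zfp968, Zfp965, Zfp966, Zfp967, Zfp973, Zfp970, Zfp971 and Zfp931. The run on chromosome 17 held 10 genes at chr17:21565816-22867309, the run on chromosome 7 held Zfp977, Zfp976, Zfp975 and Zfp936 at chr7:42579397-43192109, and the run on chromosome 8 held Zfp930, Zfp964 and Zfp963 at chr8:69209018-69749962. The other 21 placed genes lay outside these runs.

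The 100 bases before the annotated start of 3 genes of the chromosome 2 run show how alike these copies are at their promoters. They are shown 5′ to 3′ in the direction of the gene, from RefSeq on GRCm38.p6, with the motif CCAATCAG in capitals. Zfp966 lies on the minus strand (chr2:175931101-175931200), and Zfp967 (chr2:176520904-176521003) and Zfp971 (chr2:178023184-178023283) lie on the plus strand.
Zfp966: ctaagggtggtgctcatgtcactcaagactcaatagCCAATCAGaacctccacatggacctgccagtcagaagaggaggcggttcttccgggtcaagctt
Zfp967: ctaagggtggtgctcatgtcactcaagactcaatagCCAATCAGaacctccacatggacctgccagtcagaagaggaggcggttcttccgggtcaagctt
Zfp971: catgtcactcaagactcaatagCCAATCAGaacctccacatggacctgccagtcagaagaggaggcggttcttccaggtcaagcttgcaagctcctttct
Over the RefSeq window of 300 bases (250 before the start and 50 after), Zfp966 and Zfp967 were identical (100%), Zfp968 and Zfp973 shared 99.67% of bases, and Zfp965 and Zfp971 shared 97%. The median identity within the chromosome 2 run was 83.74% over 28 pairs, beside 50.15% over the 1210 pairs of genes from different places.

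Promoters of 4 genes of the chromosome 4 run, which held 8 of the 10 genes with the highest control CPM, are shown for the motif that 5 of its 9 windows shared. The capitals mark ATTGGGCGG, which joins the reverse complement of CCAAT to a GC box, or its first 5 letters alone where the rest differs. Zfp980 (chr4:145670597-145670696), Zfp985 (chr4:147553177-147553276) and Zfp987 (chr4:146097212-146097311) lie on the plus strand and Zfp979 (chr4:147642509-147642608) lies on the minus strand.
Zfp980: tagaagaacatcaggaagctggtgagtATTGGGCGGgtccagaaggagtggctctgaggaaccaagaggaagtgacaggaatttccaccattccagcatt
Zfp979: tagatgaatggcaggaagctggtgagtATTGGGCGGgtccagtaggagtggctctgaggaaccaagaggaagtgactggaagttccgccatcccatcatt
Zfp985: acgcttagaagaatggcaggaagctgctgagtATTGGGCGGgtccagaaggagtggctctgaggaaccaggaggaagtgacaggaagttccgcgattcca
Zfp987: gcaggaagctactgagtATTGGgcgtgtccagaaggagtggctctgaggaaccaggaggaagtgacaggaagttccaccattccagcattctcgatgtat
Zfp979 and Zfp980 shared 89.84% of their windows, and every pair among Zfp979, Zfp980, Zfp981, Zfp984, Zfp985 and Zfp987 shared 68.62% or more. The highest identity between genes from different places was 69.57%. Over all 36 pairs of this run, which also take in Zfp993, Zfp982 and Zfp933, the median was 51.09%, close to that of genes from different places.

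Promoter windows were found for 52 of the 58 genes. No window was used for Zfp930, Zfp934, Zfp960, Zfp986, Zfp991 and Zfp992. Motifs were chosen after looking at the windows and searched on both strands, so their counts describe these sequences only. CCAAT was in 39 of the 52 windows (75%) and in 37.9% of 27025 windows of all genes. The longer CCAATCAG, which contains CCAAT, was in 19 of 52 (36.5%) against 4.31% of all windows, in 8 of 8 windows of the chromosome 2 run and 0 of 9 of the chromosome 4 run. ATTGGGCGG, which contains both the reverse complement of CCAAT and GGGCGG, was in 7 of 52 (13.5%) against 0.278% of all windows. Of those 7, 5 lay in the chromosome 4 run (Zfp980, Zfp981, Zfp985, Zfp979 and Zfp984) and the other 2, Zfp947 and Zfp994, in the chromosome 17 run. GGGCGG alone was in 34.6% and 35.9% of windows, CCGGAAG in 25.0% and 9.12%, and TATAAA in 0 of 52 and 14.2%. Near-identical copies hold the same letters, so the windows are not independent of each other.

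The 6 libraries were not alike in depth or content, and this bears on every comparison. Control replicates 1 to 3 and dTAG replicate 1 held 13214351 to 16033011 counts, while dTAG replicates 2 and 3 held 2284068 and 2121183. Olfactory and vomeronasal receptor genes, which stem cells do not use, took 0.00459% to 0.00578% of all control counts and 0.0155%, 0.239% and 0.811% of the counts of dTAG replicates 1, 2 and 3. A count was present for 10.8% to 17.6% of these 1430 genes in the controls and for 23.1%, 71.3% and 97.1% in dTAG replicates 1, 2 and 3. The summed level of 8 embryonic stem cell markers was 2334 to 2459 CPM (counts per 1000000 counts in rows with a symbol) in the controls and 2585, 1537 and 470 CPM, in replicate order, with dTAG, with none of the 8 at 0 in any library. The sum of 6 feeder fibroblast markers was 18.0 to 30.0 CPM in the controls and 19.6, 87.3 and 286 CPM with dTAG, and Col3a1 and S100a4 were at 0 in all controls and dTAG replicate 1. In dTAG replicates 2 and 3 the stem cell markers had median log2 ratios (CPM + 1 to control mean + 1) of -0.57 and -1.84. Tested genes at or above 100 CPM in the controls had -0.47 and -2.18. The feeder markers had 1.99 and 3.69, beside 1.84 and 3.34 for tested genes under 10 CPM. Whether cell types changed was not tested. Fewer cells of a type and less RNA per cell cannot be told apart in such bulk libraries.

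Every one of the 58 genes had counts in all 6 libraries, and all 58 passed the filter on low counts for testing. In the controls their mean levels ran from 1.44 CPM for Zfp964 to 717 CPM for Zfp980, with a median of 19.5 CPM. Of the 58, 50 were at or above 5 CPM, 36 at or above 10 CPM and 15 at or above 100 CPM. CPM is not corrected for transcript length, so the order of genes by CPM is an order of counts and not of molecules. Together the 58 genes took 0.406%, 0.377% and 0.376% of the control counts, by replicate. The share was 0.410% in dTAG replicate 1 but 0.249% and 0.0764% in the shallow replicates 2 and 3. Their summed level was thus 3862 ± 170 CPM (SD, n = 3) in the controls and 4104 CPM in dTAG replicate 1, close to control replicate 1 at 4057 CPM. It was 2487 CPM in dTAG replicate 2 and 764 CPM in dTAG replicate 3, both below every control.

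**Figure D1:**
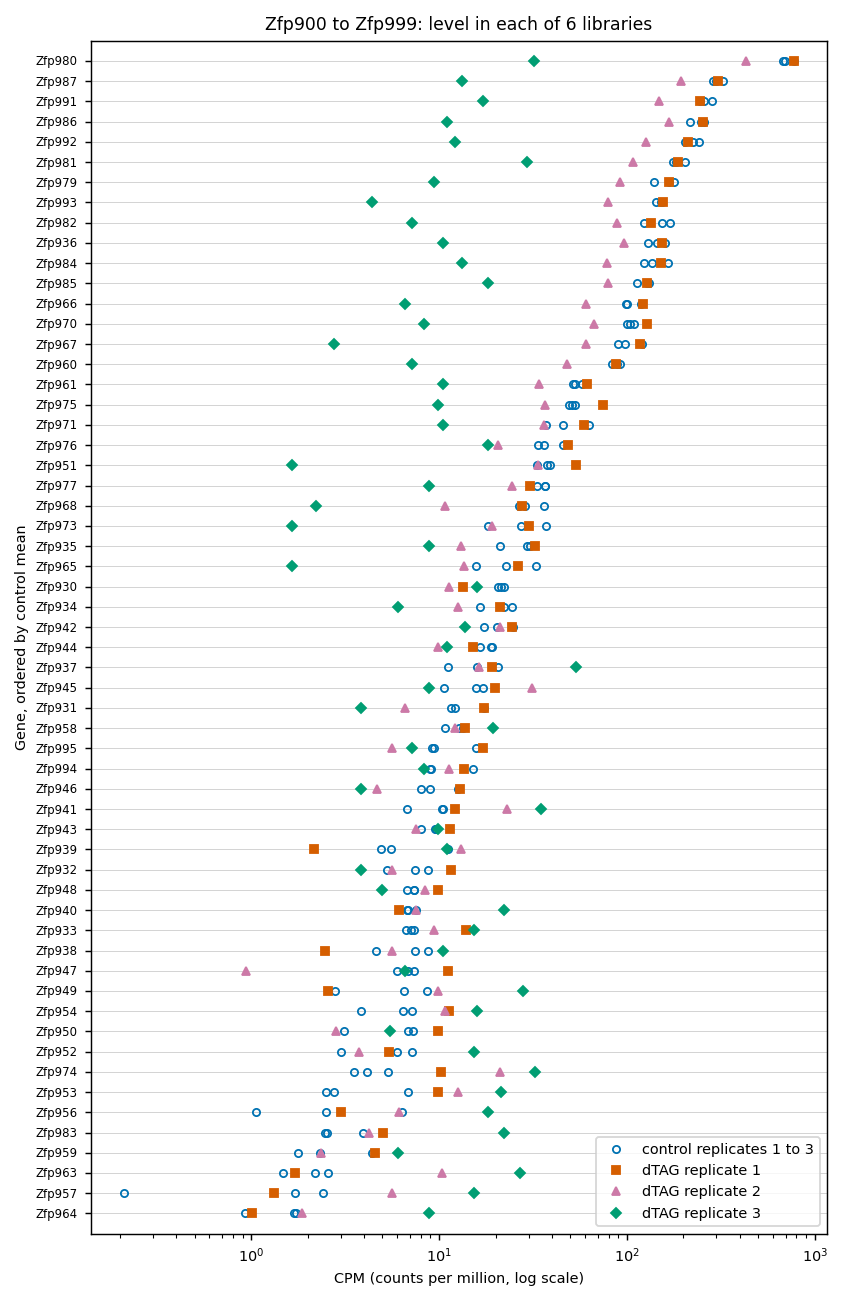
Level of each of the 58 genes in each library, in CPM on a log scale, with genes ordered by their control mean; open circles are the 3 controls and filled squares, triangles and diamonds are dTAG replicates 1, 2 and 3. Genes above 100 CPM in the controls have dTAG replicate 1 among or close to the controls and dTAG replicate 3 at 2.76 to 32.0 CPM, while many of the genes lowest in the controls have dTAG replicate 3 furthest to the right.

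The plot of levels by gene shows 1 pattern in the deep dTAG library and another in the shallow ones. The genes with most counts in the controls had nearly the same level in dTAG replicate 1, a lower level in dTAG replicate 2 and a far lower level in dTAG replicate 3. Of the 10 highest, 8 lay in the chromosome 4 run, and these 10 held 65.7% of the counts of all 58 genes in the controls (mean). They held 63.1%, 61.7% and 19.1% in dTAG replicates 1, 2 and 3.

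Values of single genes are given in the order of the replicate numbers. Zfp980 (chr4:145670697-145704437) was at 774, 677 and 699 CPM in the controls and at 772, 432 and 32.0 CPM with dTAG. Its dTAG replicate 1 lay inside the control range and the other dTAG libraries lay below it. The fitted log2 fold change over 6 libraries was -1.06 (SE 1.36, adjusted p = 0.573 in edgeR's quasi-likelihood test with Benjamini-Hochberg adjustment), so the difference did not exceed the spread. Zfp987 (chr4:146097312-146126624) was at 299, 287 and 324 CPM in the controls and 306, 195 and 13.2 CPM with dTAG. Zfp991 (chr4:147132093-147180579) was at 283, 246 and 257 CPM in the controls and 245, 149 and 17.1 CPM with dTAG. Zfp991 was thus lower in all 3 dTAG libraries, but in dTAG replicate 1 by less than 1 CPM.

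Zfp986, the gene without a RefSeq entry, was at 218, 257 and 247 CPM in the controls and 254, 168 and 11.04 CPM with dTAG. Zfp992 (chr4:146449030-146469440) was at 244, 224 and 204 CPM in the controls and 212, 126 and 12.1 CPM with dTAG. Both had dTAG replicate 1 within the control range. Zfp981 (chr4:146502000-146539395) was at 176, 204 and 182 CPM in the controls and 188, 108 and 29.2 CPM with dTAG. Zfp993 (chr4:146512849-146991471) was at 153, 152 and 143 CPM in the controls and 155, 79.3 and 4.41 CPM with dTAG. The annotated span of Zfp993, 478623 bp, overlaps that of Zfp981, and both lie on the plus strand, so counting by strand would not separate them. Whether their exons overlap was not examined, so reads of this pair could not be told apart with certainty.

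Zfp979 (chr4:147611936-147642508), also called Ssm1b and known as a modifier of transgene methylation, was at 178, 140 and 167 CPM in the controls and 168, 92.4 and 9.38 CPM with dTAG. Zfp982 (chr4:147443114-147516064), linked to the stem cell state, was at 154, 123 and 169 CPM in the controls and 135, 88.2 and 7.17 CPM with dTAG. For these genes too, dTAG replicate 1 lay among the controls and both shallow libraries lay below. Zfp936 (chr7:43114166-43192109), of the chromosome 7 run, was at 159, 130 and 144 CPM in the controls and 155, 97.1 and 10.5 CPM with dTAG. Over these 10 genes the fitted log2 fold changes lay between -1.25 (Zfp982) and -1.02 (Zfp936), with adjusted p from 0.460 (Zfp981) to 0.573 (Zfp980) in edgeR's test. These values moved with single libraries: they were -2.77 (Zfp993) to -2.36 (Zfp986) without dTAG replicate 1 and -0.70 (Zfp982) to -0.47 (Zfp936) without dTAG replicate 3. By limma-voom over 6 libraries they were -3.04 (Zfp993) to -2.31 (Zfp981). In dTAG replicate 1 alone, Zfp980 and Zfp936 had log2 fold changes of 0.02, on the other side of 0.

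No gene of the 58 passed an adjusted p of 0.05 over the 6 libraries in either direction in edgeR's test, and the share of all 18116 tested genes that did was 0%. At an unadjusted p under 0.05, 2 of the 58 genes (Zfp930 and Zfp974) and 4202 of the 18116 tested genes passed. By DESeq2, without the filter, 1 of the 58 was higher (Zfp974, background 19.8%) and 1 was lower (Zfp930, background 0.0623%). With edgeR and dTAG replicate 1 left out, the controls differed from the pair of shallow libraries in 28 of the 58 genes downward, where 19.8% of all genes were called lower, and in 1 gene upward (Zfp974), where 40% of all genes were called higher. Those shares are of the 22093 genes tested in that fit. Of the 18072 that had also passed the filter over 6 libraries, as all 58 had, 4382 were called lower and 5143 higher. Those 28 held 7 genes each of the runs on chromosomes 2 and 17, 3 each of the runs on chromosomes 4 and 7, and 1 (Zfp981) of the 10 genes highest in the controls. With dTAG replicate 3 left out, 0 of the 58 were called. With dTAG replicate 1 alone set against the controls, 0 of the 58 were called in either direction, beside 0.0606% of all genes higher and 0.0276% lower, and 8 of the 58 were at an unadjusted p under 0.05 beside 1041 of all genes. The last fit has 1 treated library and takes its spread from the controls alone. In edgeR's test the 29 calls were thus made with dTAG replicates 2 and 3 as the treated libraries, those with the high receptor gene shares given above, whose part in the result was not tested. DESeq2 was not run with libraries left out.

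The fitted log2 fold change was negative for 48 of the 58 genes and positive for 10, from -1.37 (Zfp968) to 1.44 (Zfp963). Its median was -0.78, against 0.16 over all tested genes, so the genes lay 0.94 below the whole on the log2 scale. Scaling by library totals in place of the trimmed mean of M values (TMM, the composition scaling used here) moved the median of all genes to 1.20 and that of the 58 genes to -0.32, with 35 negative and 23 positive. With dTAG replicate 1 alone the medians were 0.07 for the 58 genes and -0.02 for all genes.

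Set library by library, the picture depended on which dTAG library was read. For each gene the log2 ratio of CPM + 1 to the control mean + 1 was taken. The median over the 58 genes was 0.14, -0.52 and -0.89 for dTAG replicates 1 to 3, while each control against the other 2 gave 0.10, -0.06 and -0.09. The median over all tested genes was 0.06, 0.69 and 1.73 in dTAG replicates 1, 2 and 3. For 298 tested Zfp genes with other numbers it was 0.04, 0.49 and 1.37. The Zfp900 to Zfp999 genes were therefore on the lower side in dTAG replicates 2 and 3, where the typical gene and the typical other Zfp gene were on the higher side. Their control levels differed too, with a median of 19.5 CPM against 10.1 CPM for the other Zfp genes and 9.44 CPM for all tested genes.

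**Figure D2:**
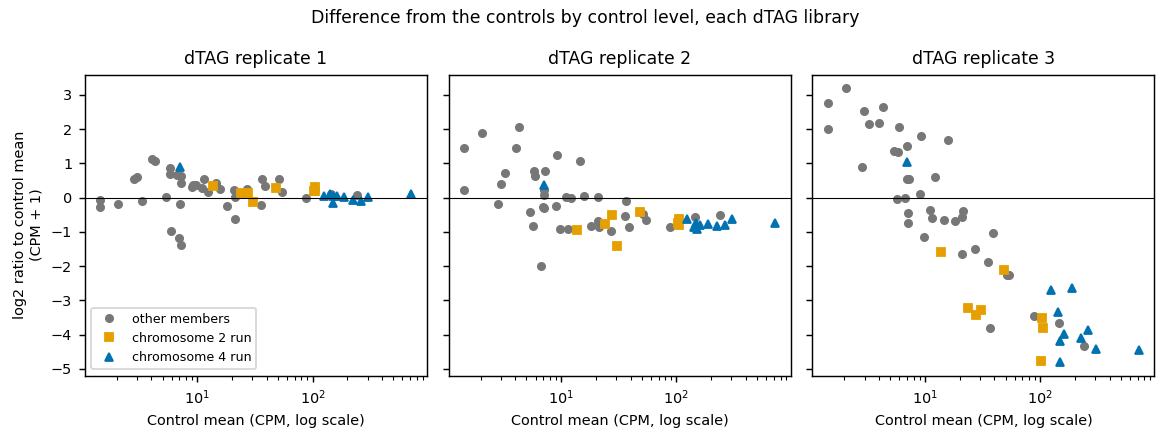
The log2 ratio of each gene's CPM + 1 to the control mean + 1 (vertical axis) against its control mean in CPM (horizontal, log scale), with a panel for each dTAG library; triangles are the chromosome 4 run, squares the chromosome 2 run and circles the other genes. In dTAG replicate 1 most points lie near 0, in dTAG replicate 2 the genes above 100 CPM lie between -0.91 and -0.51, and in dTAG replicate 3 the ratios descend with control level.

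Within the family the ratio followed the control level in the shallow libraries. Over the 58 genes, Spearman's rho between the ratio and the control mean was -0.21, -0.57 and -0.93 for dTAG replicates 1 to 3. These are descriptions across genes that share a library, and the ratio contains the control mean. The 15 genes at or above 100 CPM had median ratios of 0.06, -0.75 and -3.97 in dTAG replicates 1, 2 and 3, beside 0.05, -0.47 and -2.18 for the 1522 tested genes at that level. The 21 genes between 10 and 100 CPM had 0.23, -0.64 and -1.60, beside 0.03, 0.11 and 0.49 for 7354 genes. The 22 genes under 10 CPM had 0.37, 0.30 and 1.34, beside 0.16, 1.84 and 3.34 for 9240 genes. In dTAG replicates 2 and 3 the family's median was thus below that of all genes in each of the 3 bands, while in dTAG replicate 1 it was at or above it. The lowest band was not matched in level. Of all tested genes, 530 to 797 were at 0 in each control, while none of the 58 had a control mean below 1.44 CPM. Genes scarce in the controls could pass the filter through their dTAG counts, which favours positive ratios in that band.

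The place of each gene against the control range was counted as well. In dTAG replicates 2 and 3 together, 30 of the 58 genes were below every control in both libraries (background 17.8%) and 10 were above every control in both (background 61.6%). All 3 dTAG libraries lay above all 3 controls for 6 genes, Zfp974, Zfp953, Zfp983, Zfp941, Zfp933 and Zfp954, where 23.9% of all tested genes did. All 3 dTAG libraries lay below all 3 controls for 4 genes, Zfp991, Zfp977, Zfp930 and Zfp944, where 3.22% of all tested genes did. For the other 48 genes the groups overlapped. Counts were thin in the shallow libraries: the 58 genes had 2 to 920 counts each in dTAG replicate 2 and 3 to 97 in dTAG replicate 3, with 6 and 10 genes under 10 counts.

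The 5 smallest p-values in the downward direction belonged to genes with control means from 6.95 CPM (Zfp938) to 35.6 CPM (Zfp977). Zfp930 (chr8:69209018-69230539) was at 21.5, 20.7 and 22.1 CPM in the controls and 13.4, 11.3 and 16 CPM with dTAG. All 3 dTAG libraries, the deep one included, lay below all controls. Its log2 fold change was -1.33 (SE 0.41, adjusted p = 0.113 in edgeR's test), and with dTAG replicate 1 alone -0.76. DESeq2 called it lower.

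Zfp944, of the chromosome 17 run (chr17:22337983-22361428), was at 19.2, 18.8 and 16.5 CPM in the controls and 15.1, 9.85 and 11.04 CPM with dTAG. All dTAG values were below the controls, with a log2 fold change of -1.13 (SE 0.52, adjusted p = 0.243 in edgeR's test). Zfp977 (chr7:42579397-42592545) was at 33.4, 36.8 and 36.5 CPM in the controls and 30.6, 24.4 and 8.83 CPM with dTAG. Its log2 fold change was -1.15 (SE 0.68, adjusted p = 0.352 in edgeR's test). Zfp968 (chr2:175372034-175384754) was at 36.2, 26.6 and 28.6 CPM in the controls and 27.7, 10.8 and 2.21 CPM with dTAG, with dTAG replicate 1 among the controls. Zfp938 (chr10:82224850-82241280) was at 4.63, 8.75 and 7.45 CPM in the controls and 2.48, 5.63 and 10.5 CPM with dTAG, so its lowest and highest values were both dTAG libraries. The adjusted p of Zfp968 was 0.392 and that of Zfp938 was 0.279 in edgeR's test. Without dTAG replicate 1 the log2 fold changes of Zfp930, Zfp944, Zfp977 and Zfp968 were -2.09, -2.19, -2.26 and -3.39, and without dTAG replicate 3 those of Zfp977 and Zfp968 were -0.66 and -0.82.

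The 5 smallest p-values upward belonged to genes with control means from 1.45 CPM (Zfp957) to 9.21 CPM (Zfp941). Zfp974 (chr7:27905414-27929699) was at 5.34, 3.51 and 4.12 CPM in the controls and 10.2, 21.1 and 32.6 CPM with dTAG. All dTAG values lay above all controls, and the order of its dTAG libraries was the order of the receptor gene share, whose part in the result was not tested. Its log2 fold change was 1.39 (SE 0.45, adjusted p = 0.119 in edgeR's test), and with dTAG replicate 1 alone 1.16. DESeq2, and edgeR without dTAG replicate 1, called it higher.

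Zfp953 (chr13:67339309-67360572) was at 6.81, 2.49 and 2.77 CPM in the controls and 9.92, 12.7 and 21.5 CPM with dTAG. Its groups did not overlap, with a log2 fold change of 1.05 (SE 0.58, adjusted p = 0.320 in edgeR's test). Zfp941 (chr7:140807453-140822201) was at 10.5, 10.4 and 6.74 CPM in the controls and 12.2, 23.0 and 34.8 CPM with dTAG. Here too the dTAG values lay above the controls, with dTAG replicate 1 the nearest (log2 fold change 0.45, SE 0.38, adjusted p = 0.464 in edgeR's test). Zfp963 (chr8:69741639-69749962) was at 2.18, 1.47 and 2.55 CPM in the controls and 1.70, 10.3 and 27.0 CPM with dTAG. Zfp957 (chr14:79212355-79247367) was at 0.211, 2.43 and 1.70 CPM in the controls, the first of these from 3 counts, and at 1.32, 5.63 and 15.4 CPM with dTAG. For Zfp963 and Zfp957, dTAG replicate 1 lay inside the control range, and with that library alone their log2 fold changes were -0.36 and -0.25. The log2 fold changes of these scarce genes moved with single libraries, to 0.68 for Zfp953 without control replicate 2, 0.13 for Zfp941 without control replicate 3, 0.38 for Zfp957 without control replicate 1 and 0.94 for Zfp963 without dTAG replicate 3. A count of 3 corresponds to 1.41 CPM in dTAG replicate 2 and 1.66 CPM in dTAG replicate 3.

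dTAG replicate 1 was the treated library with a depth like the controls, and it was read on its own next. Among the 50 genes at or above 5 CPM in the controls, 21 were above all 3 controls in that library (background 29% of 11069 genes) and 8 were below all 3 (background 18.7%). Over all 58 genes, 2 were above the control mean (background 5.43%) and 2 were below it (background 1.26%) by a ratio of 2 or more on the scale of CPM + 1. For the genes furthest outside the control range, the ratio of dTAG replicate 1 to the pooled controls is given with an exact 95% interval that covers counting error only.

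Zfp933 (chr4:147822986-147849126), the last gene of the chromosome 4 run, was at 7.09, 6.64 and 7.38 CPM in the controls and 13.9, 9.38 and 15.4 CPM with dTAG, a ratio of 1.97 (1.63 to 2.38) in dTAG replicate 1. It stood above all controls in all 3 dTAG libraries, unlike the other 10 genes of its run. Its control mean was 7.04 CPM, against 124 to 717 CPM for those 10, so gene and level cannot be told apart here. Zfp954 (chr7:7114683-7121476) was at 3.86, 7.16 and 6.46 CPM in the controls and 11.3, 10.8 and 16 CPM with dTAG, a ratio of 1.93 (1.56 to 2.37). Zfp932 (chr5:109996502-110012266), known with its relative Gm15446 as a repressor of endogenous retroviruses, was at 7.44, 5.30 and 8.73 CPM in the controls and 11.6, 5.63 and 3.86 CPM with dTAG, a ratio of 1.64 (1.34 to 2.00). For Zfp932 the deep dTAG library was above and the shallowest below the controls, and Gm15446 had 6.95, 8.37 and 9.51 CPM in the controls and 6.20, 19.7 and 3.86 CPM with dTAG. Zfp950 (chr19:61053840-61140844) was at 6.81, 3.13 and 7.31 CPM in the controls and 9.84, 2.81 and 5.52 CPM with dTAG, a ratio of 1.74 (1.39 to 2.16). Zfp947 (chr17:22144355-22166172) was at 6.81, 7.35 and 5.96 CPM in the controls and 11.2, 0.938 and 6.62 CPM with dTAG, a ratio of 1.67 (1.36 to 2.04), and its value in dTAG replicate 2 rests on 2 counts. For both, dTAG replicate 1 was the highest of the 6 libraries and dTAG replicate 2 the lowest.

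On the lower side, Zfp939 (chr7:39449479-39477429) was at 4.91, 11.2 and 5.54 CPM in the controls and 2.17, 13.1 and 11.04 CPM with dTAG, a ratio of 0.295 (0.193 to 0.435) in dTAG replicate 1. Zfp949 (chr9:88548020-88571086) was at 6.53, 2.81 and 8.59 CPM in the controls and 2.56, 9.85 and 28.1 CPM with dTAG, a ratio of 0.436 (0.294 to 0.628). In both genes the controls themselves spread more than 2-fold, and dTAG replicates 2 and 3 lay higher than dTAG replicate 1. The ratio was 0.354 (0.238 to 0.51) for Zfp938, 0.626 (0.529 to 0.737) for Zfp930 and 0.83 (0.706 to 0.971) for Zfp944. With dTAG replicate 1 alone, edgeR's adjusted p for these 10 genes lay between 0.588 (Zfp939) and 0.985. That fit takes the spread from the 3 controls and assumes that the lone dTAG library would vary like them, so these p-values do not show that the levels were alike.

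**Figure D3:**
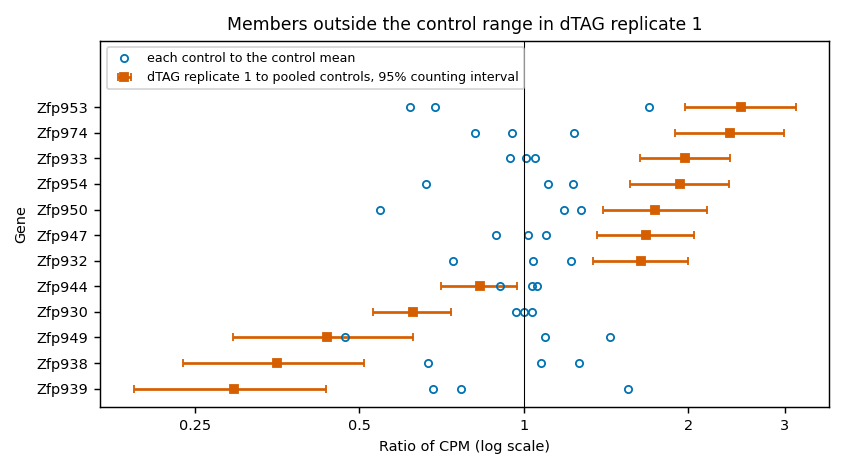
Squares give the ratio of dTAG replicate 1 to the pooled controls on a log scale, with exact 95% counting intervals, for the 10 genes named by their place outside the control range and for Zfp974 and Zfp953; open circles give each control's ratio to the control mean. The controls of Zfp939, Zfp949, Zfp953 and Zfp950 spread by more than 2-fold, while those of Zfp930, Zfp933 and Zfp944 lie close together.

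By chromosomal run, the summed levels repeated the contrast between libraries. The 11 genes of the chromosome 4 run summed to 2536, 2353 and 2391 CPM in the controls and 2474, 1437 and 172 CPM with dTAG. The first of the dTAG sums lay within the control range, and the others were 59.2% and 7.07% of the control mean. The chromosome 2 run summed to 534, 434 and 402 CPM in the controls and 529, 274 and 37.5 CPM with dTAG. Its controls spread more (457 ± 69.03 CPM, SD, n = 3) than those of the chromosome 4 run (2427 ± 96.4 CPM, SD, n = 3), relative to their means. Control replicate 1 was the highest control and control replicate 3 the lowest for 5 of the 8 chromosome 2 genes, an order seen in 15 of the 58 genes and in 18.5% of all tested genes. Reads shared between related copies could be counted at 1 copy, at several or at none, and their treatment is not given. A sum over the run would not depend on this only if each such read were counted once within it. The identity shown above is of promoter windows and not of transcripts.

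The chromosome 7 run summed to 292, 252 and 266 CPM in the controls and 309, 179 and 47.5 CPM with dTAG. Its 3 dTAG libraries had the same order as on chromosomes 2 and 4, with replicate 1 above all controls here and replicate 3 at 17.6% of the control mean in dTAG replicate 3. The chromosome 17 run summed to 113, 110.5 and 112 CPM in the controls and 141, 105 and 96.6 CPM with dTAG. Its dTAG replicate 1 was above the controls, at 126% of their mean, and the other dTAG libraries were at 94.0% and 86.4%. The chromosome 8 run summed to 25.3, 23.9 and 25.6 CPM in the controls and 16.1, 23.5 and 51.9 CPM with dTAG, and Zfp930 gave most of these counts in the controls. Its order was the reverse of the others, with dTAG replicate 1 lowest and dTAG replicate 3 highest. Runs differed in level as well, with control means of single genes from 2.99 to 20.8 CPM on chromosome 17 and from 13.7 to 106 CPM on chromosome 2, so run and level cannot be told apart in dTAG replicate 3.

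**Figure D4:**
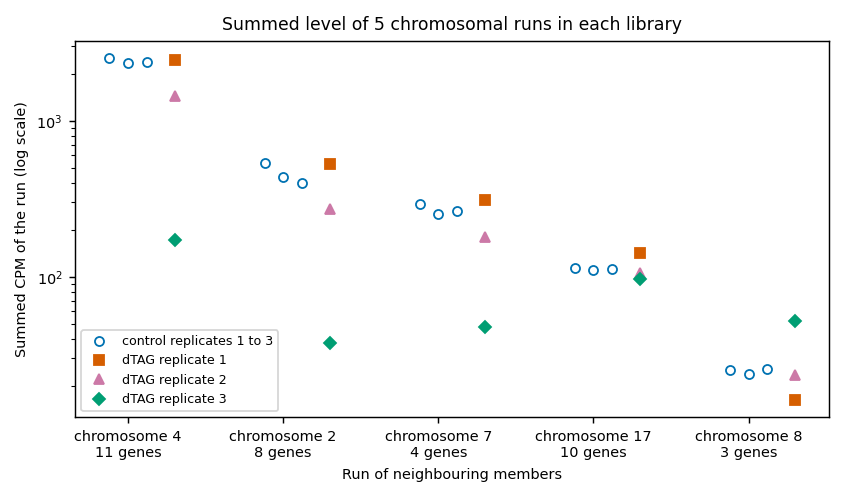
Summed CPM (log scale) of the genes in each of 5 chromosomal runs, with open circles for control replicates 1, 2 and 3 from left to right and filled symbols for the dTAG libraries. dTAG replicate 3 lies furthest below the controls for chromosomes 4 and 2, at 172 and 37.5 CPM, slightly below for chromosome 17, and above for chromosome 8.

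Outside the runs, several genes showed the split between libraries. Zfp961 (chr8:71951048-71970333) was at 57.4, 51.6 and 53.1 CPM in the controls and 61.1, 34.2 and 10.5 CPM with dTAG. Zfp951 (chr5:104802246-104860157) was at 33.1, 39.0 and 37.4 CPM in the controls and 53.5, 33.8 and 1.66 CPM with dTAG, the last from 3 counts. Both were highest in dTAG replicate 1 and lowest in dTAG replicate 3. Zfp937 (chr2:150218077-150246738), on chromosome 2 but far from the run, was at 15.9, 20.6 and 11.1 CPM in the controls and 19.1, 16.4 and 53.5 CPM with dTAG. It was the gene with the highest count of the 58 in dTAG replicate 3, while its other dTAG values lay within the control range. These 3 genes were chosen after their values were seen.

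The partners of KRAB zinc finger proteins were read beside them. Of 22 cofactor genes, 0 passed edgeR's test in either direction over 6 libraries, adjusted or at an unadjusted p under 0.05, and 0 by DESeq2, while 10 were called lower by edgeR without dTAG replicate 1, where 19.8% of all genes were called lower. Among the 18072 genes of that fit that had also passed the filter over 6 libraries, 4382 were called lower. Over 6 libraries the median log2 fold change of the cofactors was -0.88. Their median log2 ratio was 0.09, -0.39 and -1.59 in dTAG replicates 1, 2 and 3. Trim28, the corepressor bound by the KRAB domain, was at 613, 569 and 611 CPM in the controls and 699, 442 and 98.8 CPM with dTAG. Chd4, the remodelling subunit of the NuRD complex, was at 570, 497 and 544 CPM in the controls and 514, 410 and 142 CPM with dTAG. Of the 22 cofactors, 7, 19 and 20 were below their control mean in dTAG replicates 1, 2 and 3. Among all 18116 tested genes, 7583, 5352 and 4548 were. The cofactors were abundant, with a median of 127 CPM in the controls. All tested genes at or above 100 CPM had median ratios of 0.05, -0.47 and -2.18 in dTAG replicates 1, 2 and 3. Against the direction of most cofactors in dTAG replicates 2 and 3, Daxx, a histone chaperone for H3.3, and Morc2a were above their control means there. Daxx was at 42.4, 43.1 and 37.1 CPM in the controls and 41.0, 59.6 and 83.9 CPM with dTAG. Morc2a was at 68.4, 64.3 and 65.6 CPM in the controls and 70.5, 70.8 and 71.7 CPM with dTAG. All tested genes between 10 and 100 CPM had median ratios of 0.11 and 0.49 in dTAG replicates 2 and 3. Both genes were chosen after their values were seen. Of the 58 zinc finger genes, 39 were below and 19 above their control mean in dTAG replicate 3. Among all tested genes, 4548 were below and 13568 above in that library.

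Of 7 KRAB zinc finger genes with known targets outside the number range, 0 passed edgeR's test, adjusted or at an unadjusted p under 0.05, and 0 by DESeq2, with a median log2 fold change of -0.79 and 1 called lower by edgeR without dTAG replicate 1. Zfp568 was at 150.5, 174 and 157 CPM in the controls and 181, 117 and 57.4 CPM with dTAG. Zfp57, which keeps methylation at imprinted loci, was at 120, 126 and 127 CPM in the controls and 114, 101 and 28.1 CPM with dTAG. Both had dTAG replicate 3 lowest. The median log2 ratio of these 7 genes was -0.12, 0.08 and -0.93 in dTAG replicates 1, 2 and 3, beside 0.14, -0.52 and -0.89 for the 58 genes.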

How the data were processed

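The deposited table, made by the authors, gives raw counts for each gene in 6 RNA-seq columns, which were matched to samples by title. The submitters' processing notes name mm10, limma, edgeR, featureCounts and STAR 2.7.2b. The role of each, the annotation, strand use and the treatment of multi-mapping reads are not given in the sources at hand. Per the labels' protocols, ERCC RNA was added and libraries were 75 bp paired ends; the labels call them depleted of ribosomal RNA but name an mRNA kit. The table held 0 ERCC features, so total RNA per cell was not measured. Of 27179 rows, 903 had no symbol (2.20% to 2.37% of counts in the controls, 2.33%, 6.67% and 14.6% in dTAG replicates 1, 2 and 3) and were left out.

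edgeR 4.0.16 in R 4.3.3 (glmQLFit, glmQLFTest, two-sided, group alone) was fitted to all genes with TMM scaling (factors 0.727 to 0.789 in the controls, 0.774, 1.23 and 2.49 with dTAG), filterByExpr (minimum count 10) and Benjamini-Hochberg adjustment at 0.05. The script was tested on simulated data with far less spread between libraries than the real ones and no shift in composition beyond the planted changes. That test therefore does not show how many changes the fit could find in these 6 libraries. No 2 libraries agreed within sampling noise. CPM used rows with a symbol, and ratios a pseudocount of 1 CPM. A count of 0 allows 3 counts, or 0.192 to 0.213 CPM in the controls and 0.232, 1.41 and 1.66 CPM with dTAG. Promoters and positions came from RefSeq tables; window identity was computed with Biopython 1.88.

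Genes are named by rule: the 10 highest in the controls, the 5 smallest p in each direction, up to 5 in each direction outside the control range in dTAG replicate 1 at 5 CPM or more, any past the threshold, runs of 3 or more, and the 2 highest of each list. Members and lists were chosen with earlier results of these data known. Alternatives were RLE scaling, library totals, other filters and pseudocount, DESeq2 1.42.0, limma-voom 3.58.1, a replicate block, TMM-scaled CPM, dTAG replicate 1 alone, and leaving out each library.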

Additional observations from a re-analysis of the deposited data

How the results depend on the processing

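The count of genes called in edgeR's test over 6 libraries, 0, became 1398 without the filter on low counts, 5086 by DESeq2 also without that filter, 16 with dTAG replicate 1 alone and 13 with the replicate block, and ranged from 0 to 13222 when libraries were left out in turn, the highest without dTAG replicate 1. Of the Zfp900 to Zfp999 genes, 0 were called in edgeR's test, 2 by DESeq2 without the filter, 0 with the replicate block, and 0 to 29 with a library left out, the 29 again without dTAG replicate 1. Their median log2 fold change relative to all genes, -0.94, was -1.52 with library totals, -1.85 without the filter, -2.08 by DESeq2 also without it, -1.51 with the replicate block and 0.088 with dTAG replicate 1 alone, and ranged from -2.89 to -0.47 with a library left out. The median log2 ratio moved to -1.23 and -2.34 in dTAG replicates 2 and 3 with TMM-scaled CPM, and ranged from -0.995 to -0.849 in dTAG replicate 3 with a control left out. Deviations of same-numbered libraries correlated at 0.05, -0.02 and 0.03 for replicates 1, 2 and 3, and those of unlike number at -0.05 to 0.03. dTAG replicate 1 correlated best with control replicate 1, and dTAG replicates 2 and 3 with controls of another number. With all values near 0 and 3 libraries in each group, these cannot decide whether replicate numbers pair the libraries.

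For the 27 named genes, 348 of 378 alternative log2 fold changes kept their direction and side of the threshold, 11 passed it and 19 reversed; the causes were not tested. Zfp949 was 0.0163 with RLE scaling, 0.17 with the 1 CPM filter and 1.26 with library totals, which also gave 0.34 for Zfp939, 0.14 for Zfp950 and 0.0323 for Zfp932. With dTAG replicate 1 alone, Zfp957 was at -0.25, Zfp963 at -0.36, Zfp947 at 0.66, Zfp950 at 0.70, Zfp932 at 0.62, Zfp980 at 0.0244 and Zfp936 at 0.0158. Leaving out single libraries gave ranges that crossed 0: -0.582 to 0.164 for Zfp949 (above 0 without control replicate 3 and, at 0.0932, without dTAG replicate 1), -0.638 to 0.459 for Zfp933 and -0.245 to 0.589 for Zfp954 (below 0 without dTAG replicate 1), and -1.95 to 0.0048 for Zfp950 and -1.88 to 0.0633 for Zfp932 (above 0 without dTAG replicate 3). Depth limits dTAG replicates 2 and 3, where 6 and 10 of the 58 genes had under 10 counts.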
